A study of Mus musculus with 6 samples.

Results

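The phospholipase C isoforms are the enzymes that cut the membrane lipid phosphatidylinositol 4,5-bisphosphate. Their transcripts were followed in whole spleen of weanling mice, on CodeLink mouse whole genome arrays read in 1 colour (Cy5). The genes were taken by name from a list of 10 isoforms, and every probe that the platform annotation assigns to exactly 1 of these symbols was kept. This gave 9 genes of 17848 named on the array, measured by 13 of the 34949 probes in the array rows used. Plcd4 and Plcb4 had 2 probes each and Plce1 had 3, while Plcb2 had no probe with its symbol alone and was not analysed here. All 9 gene identifiers were found in the RefSeq gene table with the same symbol. The list was drawn up after Plcg1 and Plcd1 had been seen to be low in the lead-exposed spleens relative to controls. Every difference between exposed and control spleens below is therefore a description of these arrays, and no p-value is given for a member.

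All animals were female BALB/c mice of postnatal day 21. The exposed group had received lead (Pb) at 0.1 mM from gestation day 8 on and numbered 3 animals. The unexposed controls also numbered 3, with 1 array for each animal of either group. The route of exposure is not given in the labels. Labels number the animals within each group, so the spread given is that between these numbered animals. The material was the whole organ, in which fewer cells of a type and less RNA per cell cannot be told apart.

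Phospholipase C produces a pair of second messengers. Inositol trisphosphate opens calcium channels of the endoplasmic reticulum, and diacylglycerol activates protein kinase C and the Ras activators of the RasGRP family. The gamma isoforms are switched on by tyrosine kinases and act behind the antigen receptors, Plcg1 chiefly in T cells and Plcg2 chiefly in B cells, platelets and myeloid cells. Beta isoforms answer to G proteins of the Gq class and to G protein beta-gamma subunits, the delta isoforms respond to calcium itself, and Plce1 is controlled by small GTPases such as Ras.

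Of the 3 Pb arrays, 2 could be used. The values of Pb replicate 3 had r of 0.045 to 0.048 with the 3 controls across probes, against 0.94 to 0.95 between controls, and that array is left out. Pb replicate 1 had r = 0.95 with the control mean. Pb replicate 2 had r = 0.67, and its brightness drifted along the array, with medians per band of 20 array rows between -2.51 and 2.37 relative to the control mean on the log2 scale. Within the single array rows that hold the phospholipase C probes it did follow the probes, with r between 0.69 and 0.93. Its slope on the control mean in those rows was between 0.49 and 0.81, so that differences between bright and dim probes were compressed in that array. Pb replicate 1 had r between 0.94 and 0.97 in the same rows. A smooth surface over array row, array column and level was therefore removed from each array. For the phospholipase C probes this moved the log2 value of Pb replicate 2 by amounts between 4.11 up (Plcd4 probe 1) and 3.04 down (Plcd4 probe 2), whereas the largest shift in Pb replicate 1 was 0.57 up (Plcg1). After the correction Pb replicate 2 still scattered more: its robust SD, from the median absolute deviation, was 0.59, while that of the other arrays was 0.24 to 0.30. All values below are corrected log2 intensities unless they are called deposited, on a scale where the middle of an array is near 0. No detection calls were used.

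**Figure D1:**
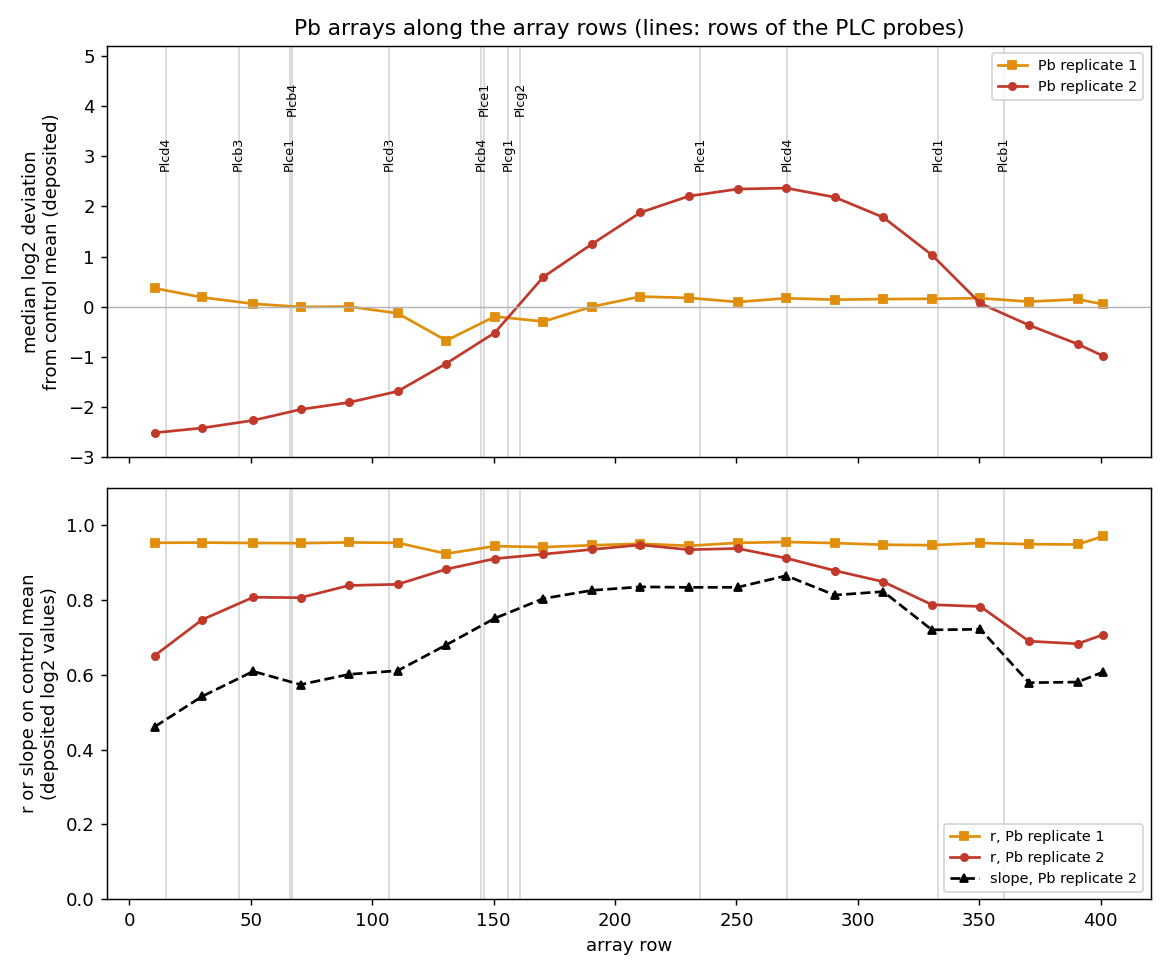
Deposited values of both usable Pb arrays along the array rows, in bands of 20 rows. The upper panel gives the median log2 deviation from the control mean, and the lower panel gives r with the control mean for both arrays and the slope of Pb replicate 2 on it. Grey lines mark the rows of the phospholipase C probes. Pb replicate 2 runs between -2.51 and 2.37 while Pb replicate 1 stays between -0.67 and 0.37.

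Markers of the spleen were bright in the controls. The median gene of each marker list lay at the 91.0th percentile of all probes for B cells, the 86.7th for T cells, the 85.4th for red pulp and marginal zone macrophages and the 94.1st for erythroid cells. For neurons it lay at the 31.0th and for muscle at the 28.4th percentile. The adipocyte list was not dim, at the 68.9th percentile, and had a median log2 difference of 0.47. Most markers of the exocrine pancreas were higher in both Pb arrays than in the controls, and the cause was not tested. Of 33 measured exocrine genes, 23 were higher in both Pb arrays than in all 3 controls, where 13% of all genes were. The summed intensity of the list was 233 and 348 in Pb spleens against 34.8 to 37.4 in control spleens. The 4 with the largest differences were Amy2a5, Try5, Cpa1 and Cela3b, which encode digestive enzymes. Their control values were dim, between the 1.67th and the 23.5th percentile of all probes, so the size of these differences is uncertain. The part of this in the phospholipase C values was not tested. The summed intensity of 8 T cell markers was 109 and 92.3 in Pb spleens and between 92.2 and 117 in control spleens. That of 7 B cell markers was 182 and 169 in Pb spleens and between 159 and 181 in control spleens. For 6 macrophage markers it was 71.4 and 59.3 in Pb spleens, under the 72.8 to 80.7 of control spleens. Of these 6 only Marco lay below all controls itself. For 9 neutrophil markers the sum was 652 and 349 in Pb and between 333 and 453 in controls. Their log2 differences ran from 0.17 to 0.65, and all 9 overlapped. For 6 erythroid markers the sum was 371 and 494 in Pb and between 322 and 474 in controls. Shifts in cell make-up were not tested. Single T cell markers went different ways. Cd3e lay above all controls (log2 difference 0.74), as did 13% of all genes. Cd28 and Thy1 lay below all controls (-0.66 and -0.28), as did 11.1% of all genes, and the other T cell markers overlapped.

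Plcg1 and Plcd1 were lower in both exposed spleens than in any control spleen, each by somewhat over 1 log2 unit. Most other isoforms stayed within 0.5 log2 units of the controls, and the 3 probes of Plce1 disagreed in direction. Over the 13 probes, 3 had both Pb arrays below all controls (Plcg1, Plcd1 and Plce1 probe 1), against 11.9% of all probes. Another 3 had both Pb arrays above all controls (Plcb3 and Plce1 probes 2 and 3), against 13% of all probes, and 7 overlapped. The median log2 difference of the 13 was 0.22, against 0.03 over all probes. That median has no settled sign, since it was -0.90 without position correction. In the limma fit over all probes, 15 of 24464 passed an adjusted p of 0.05 (0.0613%), all of them higher in Pb. None of the 11 phospholipase C probes in the fit did (0 of 11), and 4 of 11 had an unadjusted p under 0.05, against 7.18% of all probes tested. Since the list was chosen on this contrast, nothing is read from these counts. The probes not in the fit, Plcd4 probe 2 and Plcb4 probe 2, lay under the filter on dim probes.

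**Figure D2:**
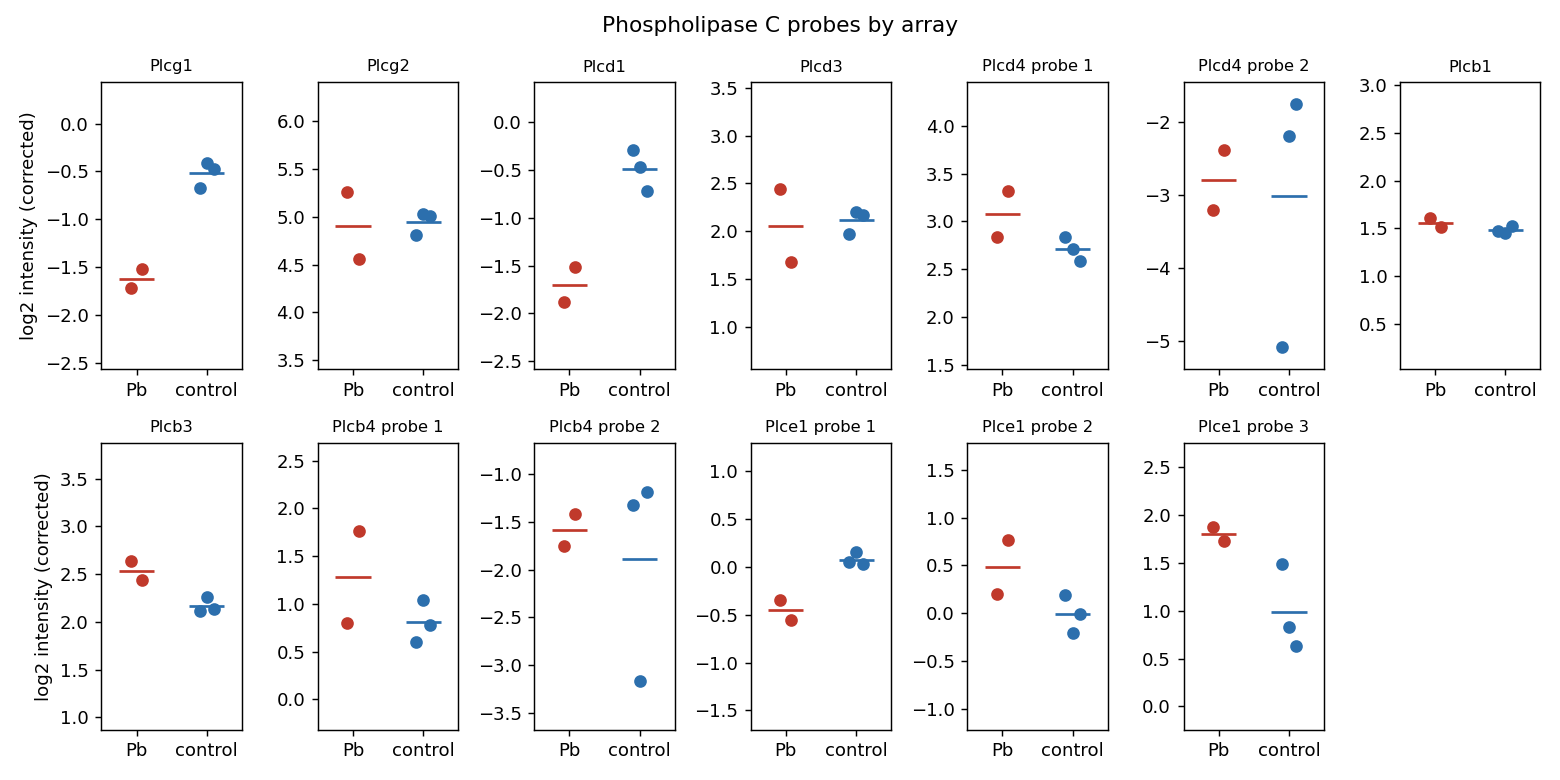
Corrected log2 intensity of the 13 phospholipase C probes, 1 panel for each, with Pb replicates 1 and 2 on the left and the 3 controls on the right; points are arrays and lines are group means. Most panels span 3 log2 units. Plcg1 and Plcd1 have both Pb arrays below every control, and the 3 Plce1 panels run in different directions.

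Among the gamma isoforms, Plcg1 was at -1.72 and -1.52 in Pb replicates 1 and 2, against -0.67, -0.41 and -0.47 in the 3 control spleens. Both exposed animals lay under all controls, and the gap between the groups was wider than the spread within either. The log2 difference was -1.10 (SE 0.18), and 4.73% of all probes had a lower difference. In the deposited values the exposed arrays lay 1.89 and 1.67 below the control mean. Its probe is derived from a GenBank record that is no RefSeq transcript, and its mean lay at the 27.9th percentile of all probes in Pb spleens and at the 42.7th in control spleens. Without detection calls the Pb level is not shown to be above background, so the size of the difference is uncertain, and a pseudocount of 0.1 gave -0.78.

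Plcg2 was at 5.26 and 4.56 in Pb spleens, against 4.81, 5.03 and 5.01 in controls. The exposed animals fell on either side of the controls, and the log2 difference was -0.04 (SE 0.25). This probe was bright, at the 96.4th percentile of the controls. The Pb arrays were 0.70 apart from each other, which is more than the 0.22 range of the controls, so the difference is not well fixed.

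Of the delta isoforms, Plcd1 was at -1.88 and -1.52 in the exposed spleens and at -0.29, -0.47 and -0.72 in the control spleens. Here too the groups did not overlap, and the gap exceeded the spread within either. Its log2 difference was -1.21 (SE 0.21), and 4.07% of all probes had a lower difference. Deposited values were 1.85 and 1.44 below the control mean. Its mean lay at the 26.8th percentile in Pb spleens and at the 43.1st in control spleens, so the same limit on size holds, and a pseudocount of 0.1 gave -0.94.

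Plcd3 was at 2.44 and 1.68 in Pb replicates 1 and 2, against 1.97, 2.20 and 2.17 in controls, with a log2 difference of -0.06 (SE 0.26). The exposed arrays lay on opposite sides of the controls, 0.76 apart. Plcd4, known for its part in the acrosome reaction of sperm, had probe 1 at 2.83 and 3.32 in Pb and at 2.84, 2.71 and 2.59 in controls. Pb replicate 1 was level with control replicate 1, so the groups overlapped, and the log2 difference was 0.36 (SE 0.21). Its probe 2 was dim, at the 8.47th percentile, with -3.20 and -2.38 in Pb and -5.08, -2.20 and -1.76 in controls, a spread far wider than its log2 difference of 0.22.

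The beta isoforms had log2 differences between 0.08 and 0.48. Plcb1 was the steadiest member, at 1.61 and 1.51 in Pb spleens and 1.47, 1.45 and 1.52 in controls, a log2 difference of 0.08 (SE 0.16). Plcb3 was at 2.63 and 2.44 in Pb and at 2.11, 2.26 and 2.14 in controls. Both exposed animals were above all controls, with a log2 difference of 0.37 (SE 0.17). Its row shows how much rests on the correction: the deposited value of Pb replicate 1 was 0.97 above the control mean and that of Pb replicate 2 was 2.77 below it. Plcb4 probe 1 was at 0.80 and 1.77 in Pb and at 0.60, 1.04 and 0.77 in controls. Pb replicate 2 alone stood above the controls, and the log2 difference of 0.48 (SE 0.32) was -0.01 without it. Plcb4 probe 2 was dim, at -1.75 and -1.41 in Pb and -1.33, -3.17 and -1.18 in controls, and the groups overlapped.

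Plce1 gave no single answer. Probe 1, made from a RefSeq transcript, was at -0.35 and -0.56 in Pb spleens and at 0.05, 0.15 and 0.03 in controls, a log2 difference of -0.53 (SE 0.17). The other two probes come from other GenBank records. Probe 2 was at 0.21 and 0.77 in Pb and at 0.20, -0.21 and -0.01 in controls, a log2 difference of 0.50 (SE 0.24), and its lower Pb value was nearly level with the highest control. Probe 3 was at 1.88 and 1.73 in Pb and at 1.49, 0.83 and 0.63 in controls, a log2 difference of 0.82 (SE 0.29). All 3 probes separated the groups, 1 downwards and 2 upwards. Which transcripts each probe binds was not analysed here, so no direction is given for the gene.

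**Figure D3:**
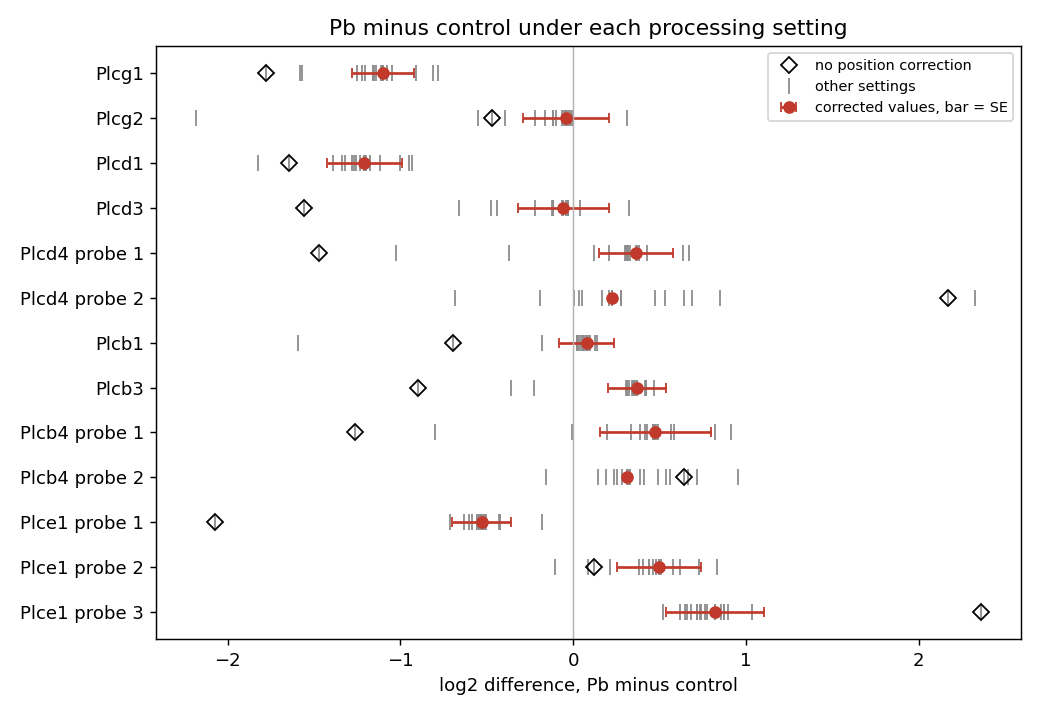
Log2 difference, Pb minus control, of each phospholipase C probe. Red points are the corrected values with their SE (no SE for Plcd4 probe 2 and Plcb4 probe 2), open diamonds the values without position correction, and grey ticks the other settings. Plcg1 and Plcd1 stay below 0 in every setting drawn, between -1.78 and -0.78 and between -1.82 and -0.94. Several other probes cross 0.

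The 250 bases before the transcription start of Plcg1 and Plcd1, the isoforms with the lowest log2 differences, are shown. Both genes were lower in Pb, and their upstream sequences can be set side by side. They are from RefSeq on GRCm38.p6, a C57BL/6J genome and not that of the BALB/c animals. Capitals mark GC boxes (GGGCGG on either strand). Plcg1 is at chr2:160731060-160731309 on the plus strand, and Plcd1 at chr9:119093503-119093752 on the minus strand, at the outer of its 2 listed starts.
Plcg1: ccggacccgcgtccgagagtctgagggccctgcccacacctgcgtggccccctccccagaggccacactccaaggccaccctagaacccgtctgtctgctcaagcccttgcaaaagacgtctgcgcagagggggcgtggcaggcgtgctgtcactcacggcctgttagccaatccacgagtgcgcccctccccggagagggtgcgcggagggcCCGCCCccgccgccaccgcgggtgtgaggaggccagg
Plcd1: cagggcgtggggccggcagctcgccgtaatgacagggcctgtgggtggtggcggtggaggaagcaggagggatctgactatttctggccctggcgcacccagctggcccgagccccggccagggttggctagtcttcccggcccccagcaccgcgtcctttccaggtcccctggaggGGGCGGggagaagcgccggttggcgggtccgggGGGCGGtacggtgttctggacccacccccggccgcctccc
Both stretches are rich in G and C, 71.2% in Plcg1 and 72.8% in Plcd1, against a median of 52.4% over all listed promoters. A GC box was found 1 time in Plcg1 and 2 times in Plcd1. It occurred in 7 of the 10 isoform promoters and in 32.7% of all 32851 promoters of the same length. All isoform promoters but that of Plce1 (38.8%) were above the median G and C content, at 55.6% to 85.2%. The CCAAT box (CCAAT) occurred in Plcg1, Plcd3 and Plcd4, against 33.8% of all. TGCGCNC is a form of the core of the metal response element, which the zinc-sensing factor MTF1 binds. It occurred in Plcg1, Plcd3, Plcb1 and Plcb4, against 12.5% of all, and not in Plcd1. Other forms of that core were not searched. TATAAA, found in 12.4% of all, and TGACGTCA, found in 1.55%, occurred in 0 of the 10. Both strands were searched, and no matches of different motifs shared bases in Plcg1 or Plcd1. GGGCGG and TGCGCNC consist mostly of G and C. The shares over all promoters were not matched for G and C content, so no enrichment is read from these counts. Of the 5 motifs searched, the GC box alone was found in both Plcg1 and Plcd1, and 5 other isoforms had it too.

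The surroundings of the Plcg1 and Plcd1 probes on the array were examined for low values shared with other probes. Plcg1 is at column 106 of array row 156. The 19 probes within 1 row and 3 columns had deposited medians 1.23 below the control mean in Pb replicate 1 and 0.60 below it in Pb replicate 2, so the array was dim there in both exposed animals. After correction the medians of these neighbours were -0.37 and 0.08, and their median log2 difference was -0.14 (quartiles -0.44 and 0.21). Of these neighbours 4 had both Pb arrays below all controls and 1 above. The spot directly beside Plcg1 belongs to Ddx6, an RNA helicase, and was lower still, at a log2 difference of -1.71, with -1.84 in Pb replicate 1 and -1.57 in Pb replicate 2. The spot on the other side, Dtl, had -0.19, with -0.93 in Pb replicate 1 and 0.55 in Pb replicate 2. The spot in the same column 1 row before, which has no single symbol, was at -0.85, with -0.81 and -0.89 in Pb replicates 1 and 2. Within array row 156, Plcg1 had the next to lowest difference of the 65 probes in the fit. Subtracting the median of the near neighbours as well left Plcg1 at -0.81, and a coarser surface of 15 basis functions along the rows gave -1.58. How much of the Plcg1 value belongs to its position was not tested further.

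Plcd1 is at column 30 of array row 333, far from Plcg1. Its 14 near neighbours had deposited medians of -0.50 in Pb replicate 1 and -0.82 in Pb replicate 2 relative to the control mean. The other probes of row 333 had -0.06 and 0.66, so the array was dim near Plcd1 too. After correction the medians of these neighbours were -0.03 and -0.36. Their median log2 difference was -0.15 (quartiles -0.37 and 0.20), and 3 of them had both Pb arrays below all controls and 3 above. How much of the Plcd1 value belongs to its position was not tested. The spots on either side, Olfr71 and Hrnr, had -0.15 and 0.94, the second of them dim and under the filter. Lower differences than that of Plcd1 were found close by. Adamts19, 3 columns away, was at -2.14, with -0.18 in Pb replicate 1 and -4.11 in Pb replicate 2. The spot in the same column 1 row after, under the filter and with no single symbol, was at -1.89, with 0.03 in Pb replicate 1 and -3.82 in Pb replicate 2. Plcd1 itself had -1.39 and -1.03 in Pb replicates 1 and 2. In its row Plcd1 had the third lowest difference of 65. With the near neighbours subtracted it was -1.0, and with the coarser surface -1.26.

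**Figure D4:**
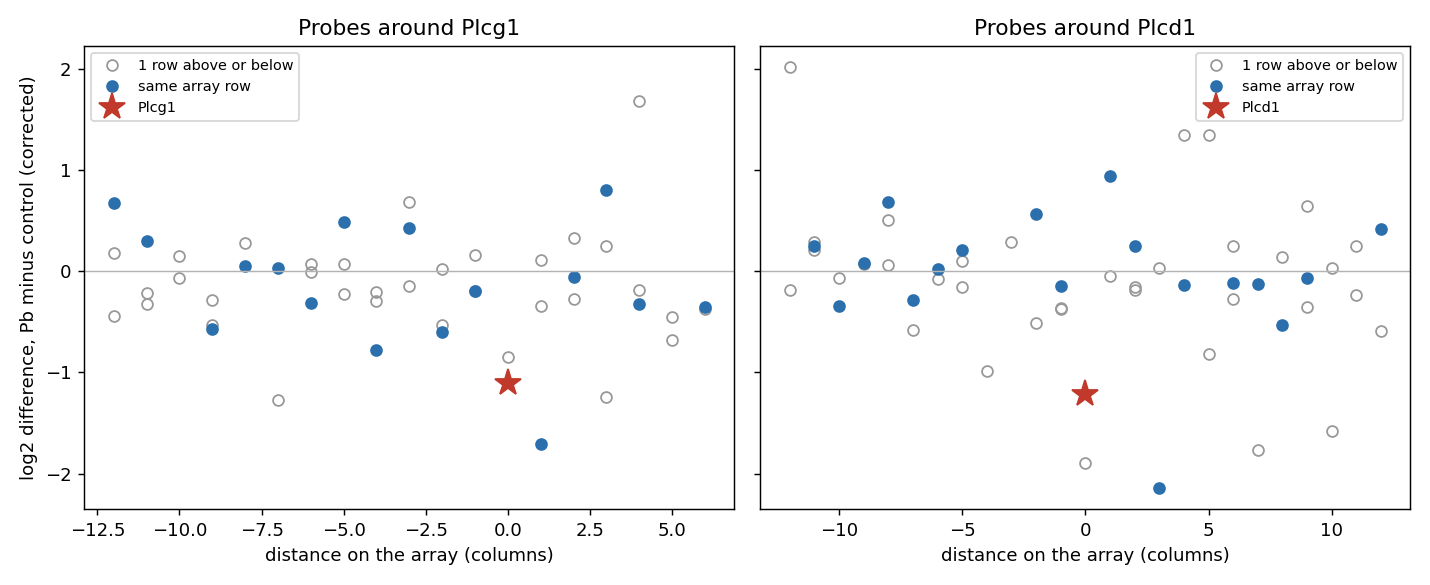
Corrected log2 difference, Pb minus control, of the probes around Plcg1 (left) and Plcd1 (right), by distance in array columns. Filled points are in the same array row and open points 1 row above or below. Beside Plcg1 lies the lower value of Ddx6 (-1.71). In the row of Plcd1 the adjoining spots are at -0.15 and 0.94 and Adamts19 at -2.14, and the spot in its column 1 row after is at -1.89.

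Probes with the pattern most like these isoforms were looked for among 15889 others with a single symbol, by the root mean square distance of the 5 log2 values centred on the control mean. For Plcg1 they were Tnf, a cytokine (distance 0.04), Stk32a (0.18) and C920009B18Rik (0.21), with log2 differences of -1.16, -0.98 and -1.07. For Plcd1 they were Bbx (0.15), C920009B18Rik (0.19) and Prrx1, a homeobox factor (0.20), with -1.09, -1.07 and -1.47. Of these 5 different probes 3 lay in array rows 121 to 140, a stretch that holds 4.64% of the probes in the fit and where the deposited values of both Pb arrays were low, by medians of -0.67 and -1.13. Neither phospholipase C probe lies in that stretch. Row 156, which holds Plcg1, was low in both Pb arrays as well, with deposited medians of -0.53 and -0.44. Row 333, which holds Plcd1, had -0.08 and 0.65.

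The genes around phospholipase C in its pathway were counted with 1 probe for each gene, the brightest. Over 6 such lists, 0 of 90 genes in the limma fit passed in either direction, where 0.0795% of all genes in the fit did. The genes that passed were all on the exocrine list. The filter on dim probes used the mean of all 5 arrays. Some of these genes, such as Amy2a5 (1.67th percentile in controls) and Try5 (15.9th), entered the fit only through high Pb values. Their passing is therefore partly built in. Of the 90 pathway genes, 2 had an unadjusted p under 0.05 (2.22%), against 7.18% of all probes tested. The second share is over probes and not over 1 probe for each gene, so these shares are not like for like. Of all genes, 13% had both Pb arrays above every control and 11.1% had both below, which are the levels each count below is set against. The median log2 difference over all genes was 0.03.

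Upstream of the gamma isoforms, among antigen receptor kinases and adaptors, 22 of 23 measured genes were in the fit, with 0 higher and 0 lower past the adjusted threshold. The median log2 difference was -0.0046, and 6 lay above and 0 below all controls. Cd3e, a signalling subunit beside the T cell receptor, had the highest difference, with 2.15 and 2.25 in Pb spleens against 1.55, 1.31 and 1.53 in control spleens (0.74, SE 0.17, limma adjusted p = 0.622). Cd3d and Cd3g of the same complex, named after their values were seen, had 0.06 and 0.00019. Grb2, an adaptor protein, had 0.56 and Lcp2, the adaptor that brings Plcg1 to the T cell receptor, had 0.26. Both are named after their values were seen. Vav2 had the lowest difference (-0.46, SE 0.35, limma adjusted p = 0.672), with 1.05 in Pb replicate 1 and -0.14 in Pb replicate 2. Zap70, the kinase at the T cell receptor, was at 2.29 and 1.97 in Pb spleens and at 2.17, 2.38 and 2.24 in control spleens (log2 difference -0.13, limma adjusted p = 0.813). Lat, the membrane adaptor to which Plcg1 binds, had -0.02, and Btk and Blnk, which act before Plcg2 in B cells, had -0.04 and -0.10. These 4 genes, also named after their values were seen, overlapped between the groups. For the beta isoforms, 14 genes of Gq class G proteins and RGS proteins, which shut G proteins off, had a median of 0.06, with 1 above and 0 below. Among the 10 in the fit, Gng2, a gamma subunit, was at 0.37 and Gnaq, the alpha subunit for which the class is named, at -0.27 (limma adjusted p = 0.625 and 0.863).

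Downstream, the inositol trisphosphate and calcium branch held 22 measured genes, with a median of 0.12, 3 above and 1 below. Atp2b4, a calcium pump of the plasma membrane, had the highest log2 difference (0.53, limma adjusted p = 0.622). Impa1, an inositol monophosphatase, had the lowest (-1.11, limma adjusted p = 0.65), which rests on Pb replicate 2 at -3.40, with Pb replicate 1 at -0.69 and controls between -1.44 and -0.59. The diacylglycerol branch held 18 genes, with a median of -0.05, 2 above and 2 below. Prkd1, a kinase activated by diacylglycerol, had 0.37 and Dgke, a diacylglycerol kinase, had -0.39 (limma adjusted p = 0.681 and 0.622). Dgke was at -1.33 and -1.20 in Pb and at -0.78, -1.03 and -0.82 in controls, without overlap. Among 21 genes that supply the phosphoinositide substrate the median was 0.02, with 2 above and 3 below, and those in the fit ran from -0.24 (Pitpnb, a lipid transfer protein) to 0.25 (Ocrl, a phosphoinositide phosphatase), with limma adjusted p = 0.73 and 0.724.

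Further genes related to phospholipase C were mostly dim. Of 8 measured, 3 were in the fit, with 0 above and 0 below all controls. Plcl2, a relative of phospholipase C without its catalytic activity, was at 3.70 and 3.70 in Pb and at 3.83, 3.59 and 4.40 in controls (log2 difference -0.24, limma adjusted p = 0.768). Gdpd1 had -0.09 (limma adjusted p = 0.887). Plcz1, the isoform of sperm, lay under the filter at -2.83 and -2.47 in Pb spleens and -2.69, -2.88 and -3.41 in control spleens.

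**Figure D5:**
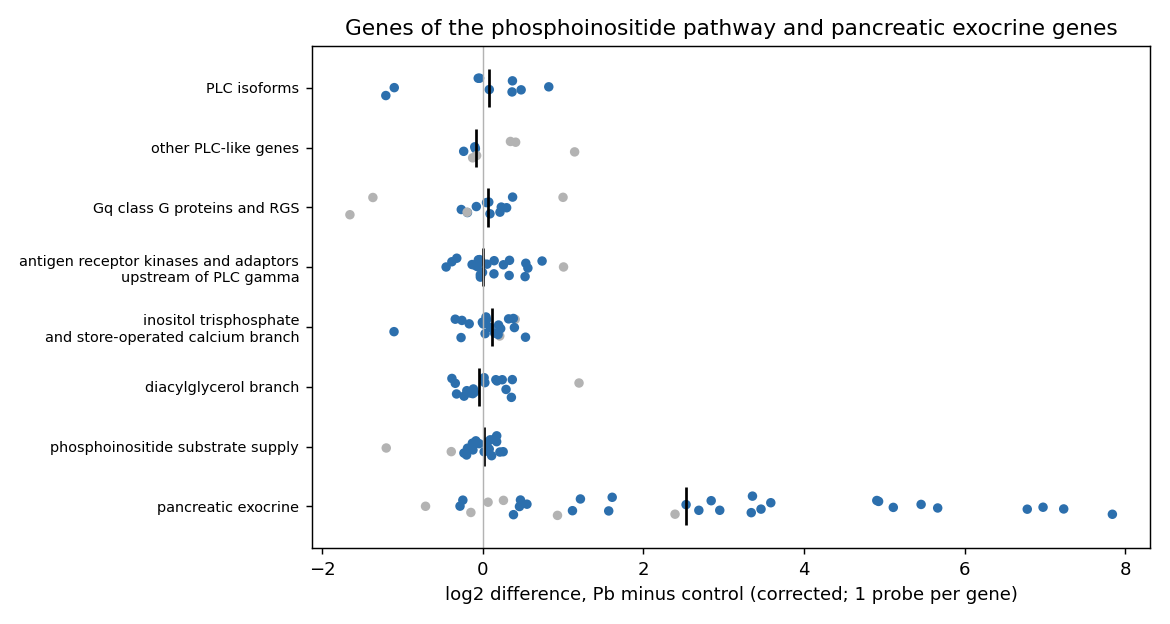
Log2 difference, Pb minus control, of each measured gene in the phospholipase C list, 6 lists of the surrounding pathway and the exocrine pancreas list, with 1 probe for each gene. Blue points were in the limma fit, grey points lay under the filter, and black bars are medians. Medians of the 6 pathway lists lie between -0.09 and 0.12, that of the exocrine list at 2.53.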

How the data were processed

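The deposited intensities are on a linear scale, and 151 to 711 of them per array are at or under 0. Array medians lie between 0.97 and 0.99, so each array appears to have been divided by its median. The sources used here do not give the background correction or the scanner software. Probes were named by the platform annotation (21615 probes with 1 symbol, 681 with several, 13291 not listed).

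Before log2, values at or under 0 were set to the 1st percentile of that array's positive values. Array rows 402 to 409 (638 probes), where controls were found earlier not to follow each other, and Pb replicate 3 were left out. For each of the 5 arrays, deviations from an average of control arrays and Pb replicate 1 were smoothed over row, level and column, and the smooth was subtracted, 2 times over (bam of mgcv 1.9.3, with 40, 6 and 8 basis functions). That average holds the controls, so closeness to them is partly built in. Probes with a mean over the 5 arrays at or above the 30th percentile entered a limma 3.58.1 model (R 4.3.3). A probe dim in controls could thus enter through its Pb values. Two-sided tests came from eBayes, with p-values adjusted after Benjamini-Hochberg over all probes tested. The fit was tested on simulated data. The number of arrays limits the precision.

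The members, gene lists and tests were chosen with earlier results of these data known. Named are all isoform probes; in each pathway list the highest and lowest difference in the fit and any gene that passed; the 3 probes most like Plcg1 and Plcd1; and 4 exocrine genes. Exceptions are stated. There were 19 alternatives, of which 1, rescaling Pb replicate 2 by its slope over 21 rows, was added after seeing the data.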

Additional observations from a re-analysis of the deposited data

How the results depend on the processing

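Plcg1 and Plcd1 were lower in Pb in 19 of 19 alternatives each. Both had been seen to be low relative to controls in these same arrays before the list was drawn up, and the alternatives reuse those arrays. The shared sign is therefore no independent evidence, and only the sizes are compared here. The setting with 6 arrays also brings back Pb replicate 3, which is otherwise left out. For Plcg1, -1.10 became -1.78 without position correction, -1.25 with a surface without dependence on level, -1.58 with 15 basis functions, -0.81 with the near neighbours subtracted, -0.78 with a pseudocount of 0.1, -1.57 in the 6 arrays as deposited, and -1.20 to -0.91 with 1 array left out. For Plcd1, -1.21 became -1.64 without position correction, -0.94 with the pseudocount, -1.82 in the 6 arrays, and -1.39 to -0.95 with 1 array left out. The median of the 13 probes, 0.22, became -0.90 without position correction, -0.36 without dependence on level and -0.66 in the 6 arrays. The 3 probes below all controls (11.9% of all probes) became 5 without position correction (17.6%) and 3 to 5 with 1 array left out, 5 without Pb replicate 1 (29.2%). Of 209 comparisons of the other probes 20 changed sign. The 15 probes past the threshold in limma became 0 without position correction, 0 without the filter, 0 in the 6 arrays and 0 with the slope rescaling (3608, 1981, 1748 and 1408 at an unadjusted p under 0.05), 7 with array weights. Leaving out 1 array gave 2 to 2926: 4 without control replicate 1, 2 without control replicate 2, 4 without control replicate 3, and 2926 without Pb replicate 1, whose lone remaining Pb array is then taken to vary like the controls; Plcg1 was among these 2926 (12% of the probes tested), and no phospholipase C probe passed in the other alternatives. The cause was not tested. Same-numbered arrays had deviations with r = 0.03 and 0.00016, and the labels do not say what a number shares; with the replicate block 7 probes passed. Low signal limits Plcd4 probe 2 and Plcb4 probe 2.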
